A study of Mus musculus with 24 samples.

Results

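The miRNAs mmu-miR-6366 and mmu-miR-5100, called miR-6366 and miR-5100 here, are 2 of the 1881 mouse miRNAs on the array, and both were among the 631 miRNAs that passed the filter on detection. They were chosen by 2 measured values, a bright signal in fresh liver RNA and the size of their loss when small RNAs were removed from that RNA. The signals with which they were chosen are therefore described and not tested. The study read miRNA signals in liver on 24 one-colour arrays that make up 8 groups of 3. It used 3 mice, numbered 7, 9 and 10 in the labels, and every mouse gave 1 array to each group.

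Of the 8 groups, 4 held total RNA with its small RNAs, isolated with the miRNeasy kit with or without the optional DNase digestion. The liver for these had been kept for 0 h, or for 96 h at room temperature. The other 4 held RNA of unstored liver that was isolated with DNase on the RNeasy kit, whose columns let most small RNAs pass, so that the product is depleted of them. It was hybridized as isolated, or after incubation with 0 U, 0.026 U or 0.67 U RNase and reisolation with the miRNeasy kit without DNase. Each liver had been divided, so the groups compared are parts of the same 3 organs. The mice were male, and the strain and age of these 3 animals are not given in the sources used here. Per the study's methods the preparation leaves a remainder of small RNA.

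A mature miRNA is a short RNA cut from a hairpin precursor by the nucleases Drosha and Dicer. It guides an Argonaute protein to target mRNAs, mainly through its seed, bases 2 to 8 from the 5′ end. The array does not read these steps. It reports any labelled RNA that hybridizes to a probe, whatever molecule that RNA was cut from. No target or function of either miRNA in liver was measured here.

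The mature sequences of the members are shown first, together with those of miR-3968, miR-3963 and miR-21a-5p, to which the results below refer. The sequences are from RefSeq on build GRCm38.p6, where 1608 of the 1881 array miRNAs were matched by name, and the seed is in capitals.
miR-6366: aGCUAAGGggcccggggagcca
miR-5100: uCGAAUCCcagcggugccucu
miR-3968: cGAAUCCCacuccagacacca
miR-3963: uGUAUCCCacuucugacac
miR-21a-5p: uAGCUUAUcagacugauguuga
The 2 members had unrelated sequences, with a longest shared run of 3 bases and different seeds. No other of the 1679 mature mouse miRNAs in the table had the seed of miR-6366, and none had that of miR-5100. MiR-6366 was rich in G and C, at 16 of its 22 bases (72.7%), a content that 3.28% of the mature miRNAs reached or passed. MiR-5100 had 13 of 21 (61.9%), reached or passed by 21.9%.

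MiR-5100 shared a run of 9 bases with miR-3968, another bright miRNA of fresh liver. Only these 2 of the 1679 mature sequences held that run, which is in capitals in their 2 lines. MiR-3963 shared another run, of 8 bases, with miR-3968, and that run is in capitals in the line of miR-3963 only.
miR-5100: uCGAAUCCCAgcggugccucu
miR-3968: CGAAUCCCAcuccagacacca
miR-3963: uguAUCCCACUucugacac
The hairpins show where each mature sequence (in capitals) lies in its precursor, as RefSeq records it.
Mir5100: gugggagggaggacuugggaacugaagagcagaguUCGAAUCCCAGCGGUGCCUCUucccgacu
Mir6366: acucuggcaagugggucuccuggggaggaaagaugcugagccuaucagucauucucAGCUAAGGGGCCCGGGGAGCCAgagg
The Mir5100 hairpin is at chr11:60728663-60728726 on the plus strand and lies inside the limits of the protein-coding gene Mief2, 265 bases from its lower end. Whether it is exonic or intronic was not looked up, because the gene table used gives only gene limits. The Mir6366 hairpin is at chr16:18165089-18165170 on the minus strand and overlaps no listed gene. Its neighbours are the protein-coding gene Rtn4r, 12680 bases away, and the lncRNA gene Gm34679, 4344 bases away.

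The Mir5100 hairpin holds the letters GUUCGANUC (N, any base) at bases 34 to 42. These letters are also those of the conserved T arm of transfer RNAs. Of the 1005 mouse hairpins in the table, 1 (0.0995%) held them, and 0 held their reverse complement. The match describes the sequence and is no evidence of what hybridized. In a minimum free energy fold (ViennaRNA), 68.2% of the mature bases of miR-6366 and 76.2% of those of miR-5100 were paired, against a median of 81.0% over 1581 mature miRNAs. Fewer paired bases than miR-6366 were found for 9.99% of them, and fewer than miR-5100 for 30.4%.

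The summed signal of all detected miRNAs per array, in intensity units, ran from 55237 to 163493 in fresh RNA with small RNAs, from 187378 to 362324 after storage, from 7125 to 10043 on the depleted and 0 U arrays and from 36325 to 177642 with RNase. The RNA integrity number, which falls as RNA is broken, was 8.8 to 9.4 on arrays without storage or RNase, 2.3 to 2.5 after 96 h, 6 to 7 at 0.026 U and 2.4 to 2.9 at 0.67 U. As a check of the tissue, the hepatocyte miRNA miR-122-5p was detected on all 24 arrays, at 6767 to 13686 units in fresh RNA, while the neuronal miR-124-3p and miR-9-5p and the muscle miR-1a-3p and miR-208a-3p were detected on 0 arrays. The other muscle marker, miR-133a-3p, was detected on 6 of the 24 arrays and on 0 of the 6 fresh arrays. For mouse 9, titles and descriptions of the arrays at the RNase doses contradict each other, so every value for a single dose rests on the descriptions. Both members were detected on all 24 arrays, and none of their spots was saturated.

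In fresh liver RNA mmu-miR-6366 was the brightest miRNA on the array. In fresh DNase-treated RNA its signal was 23166, 41139.9 and 37532 intensity units in mice 7, 10 and 9. Without DNase it was 57325.5, 64621 and 53289 units in the same order. It ranked first on all 6 fresh arrays, and mouse 7 with DNase was the lowest of the 6. As a share of the summed signal of detected miRNAs this was 40.1% ± 2.22 (SD, n = 3) with DNase and 41.1% ± 2.07 (SD, n = 3) without. The share of miR-6366 thus varied less between mice than its signal, whose coefficient of variation was 28.0% with DNase and 9.83% without.

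Mmu-miR-5100 was dimmer, ranking between 4 and 6 on the fresh arrays. With DNase its signal was 1486, 4263 and 3083 units in mice 7, 10 and 9, and without DNase 6957, 9290 and 7297 units. The 2 groups did not overlap, and mouse 7 with DNase was again the lowest. Its share was 3.31% ± 0.605 (SD, n = 3) with DNase and 5.49% ± 0.207 (SD, n = 3) without. Together the 2 members held 41.5% to 44.6% of the detected signal in DNase-treated and 45.2% to 48.7% in undigested fresh RNA. In order of mean signal over the 6 fresh arrays, the 5 brightest miRNAs were miR-6366, miR-3963, miR-122-5p, miR-3968 and miR-5100, so miR-122-5p, which is characteristic of hepatocytes, was the only one of them numbered below 3000 in the miRNA catalogue. In bulk RNA, fewer cells of a type and less RNA per cell cannot be told apart.

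**Figure D1:**
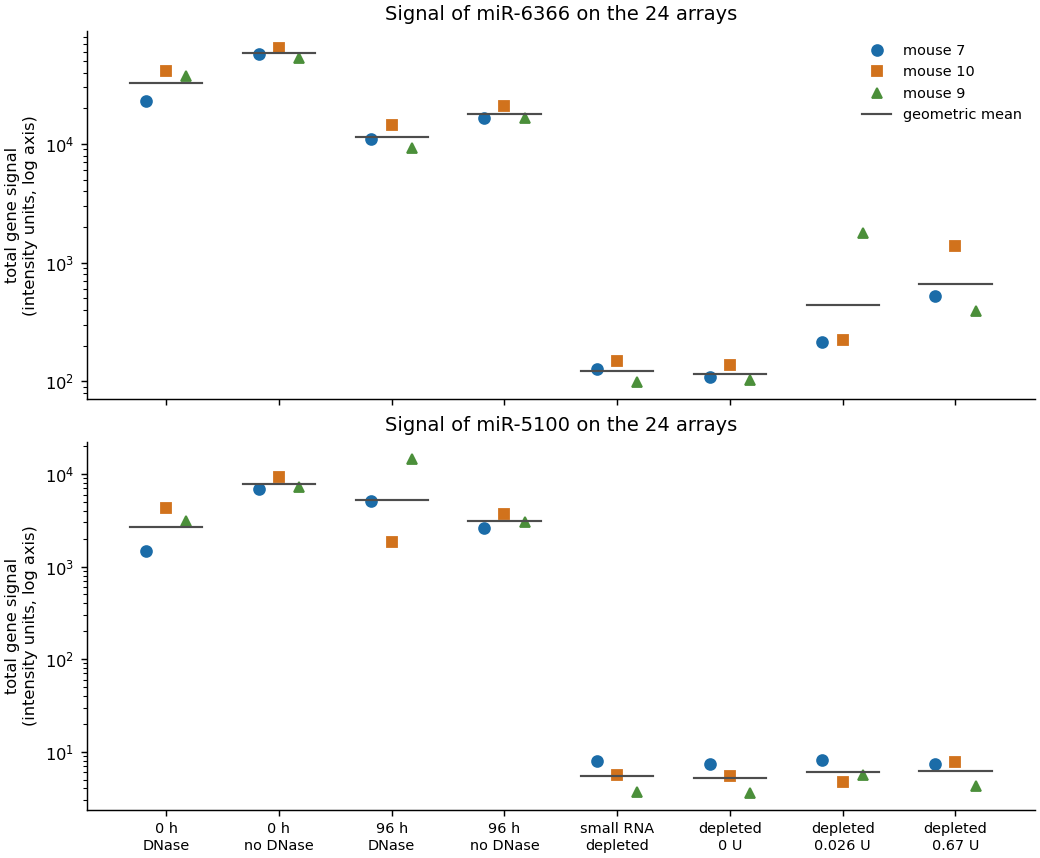
Total gene signal of miR-6366 (top) and miR-5100 (bottom) on each array, in intensity units on a log axis, by group, with 1 point per mouse and the geometric mean of 3 mice as a line. Both fall by more than 2 decades in depleted RNA, and miR-6366 alone lies higher on all 6 RNase arrays than on the 0 U arrays.

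Removing small RNAs took away nearly all of both signals. This comparison chose the members, so it is given without a test. In depleted RNA miR-6366 was at 127.5, 147 and 97.9 units in mice 7, 10 and 9, which is 0.261% to 0.550% of the same mouse's fresh DNase-treated signal, a geometric mean loss of 269-fold. MiR-5100 was at 7.91, 5.63 and 3.67 units, 0.119% to 0.532% of the fresh signal and a loss of 493-fold. The ranks fell unequally: miR-6366 was still between 9 and 10 among the detected miRNAs, and miR-5100 was between 99 and 129. MiR-6366 kept 1.38% ± 0.183 (SD, n = 3) of the detected signal and miR-5100 0.0639% ± 0.0231 (SD, n = 3). On the normalized scale (glog2, a logarithm to base 2 that is stabilized near 0), miR-5100 fell by 8.66 and miR-6366 fell by 7.99, and among the other tested miRNAs detected on every fresh DNase-treated array miR-101c, miR-3968 and miR-21a-5p came next, at changes of -7.76, -7.34 and -6.98. MiR-101c was detected on no depleted array, so its change is no measured fold. The size of the normalized loss depended on the scaling: for miR-6366 it was -5.82 with the 75th percentile, -4.67 with quantiles and -4.77 with normexp and quantiles, and for miR-5100 it was -6.69, -6.63 and -5.22 in the same order. The values just outside the choice were thus close to those inside it. Read as a share left, miR-3968 kept 0.381% to 1.13% and miR-21a-5p, a widely expressed miRNA, 0.441% to 1.08%, while miR-122-5p kept 20.8% to 36.0% and miR-494-3p 85.6% to 109%. Of the 30 brightest miRNAs of fresh DNase-treated RNA, 6 kept below 1%, and their median was 8.03%.

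Between fresh RNA without DNase and depleted RNA incubated at 0 U, miR-6366 differed by 508-fold and miR-5100 by 1495-fold. These arrays hold the same livers, and the 0 U RNA is an aliquot of the same depleted RNA, so the values add no independent support. Incubation at 0 U left both near their level in depleted RNA. MiR-6366 was at 108.5, 136 and 102 units in mice 7, 10 and 9 after it, and miR-5100 at 7.32, 5.40 and 3.57 units.

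**Figure D2:**
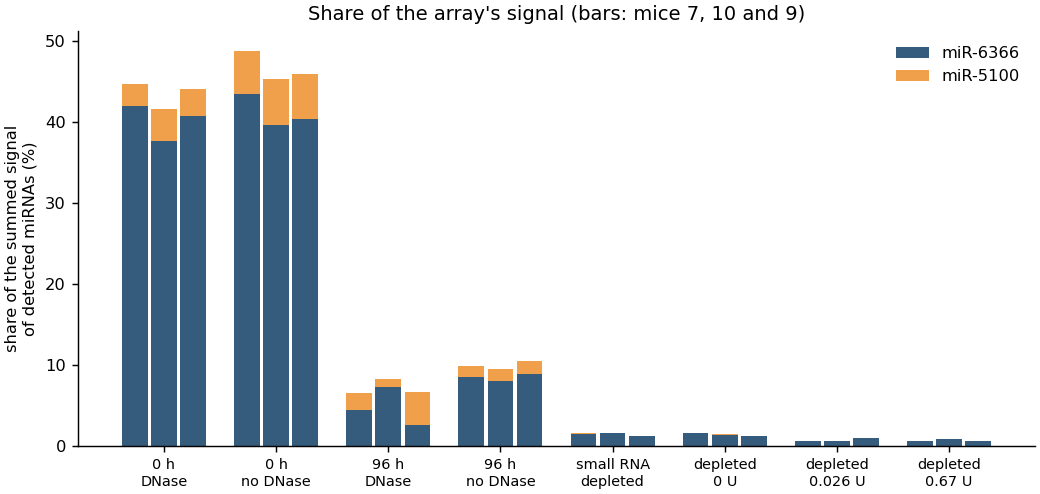
Share of the summed signal of detected miRNAs held by miR-6366 (blue) and miR-5100 (orange, stacked) on each array, in percent. The 6 fresh arrays reach 41.5% to 48.7% together, the stored arrays 6.55% to 10.5%, and the RNase arrays stay below 1%.

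With RNase treatment of depleted RNA the raw signal of miR-6366 was higher than at 0 U, though far below its fresh level. That of miR-5100 overlapped its 0 U level. At 0.026 U miR-6366 was at 213, 221 and 1767 units in mice 7, 10 and 9. At 0.67 U it was at 521, 1388 and 391 units. All 6 arrays lay above the 3 at 0 U, and the highest value came from mouse 9 at 0.026 U by its description, which is the array whose title names 0.67 U. These levels were 0.538% to 4.71% of the same mouse's fresh DNase-treated signal. A low signal in depleted RNA was among the values that chose the members, and the 0 U RNA is an aliquot of it. The tests against 0 U here and below, also for single doses and single probes, are therefore not independent of that choice. Their p-values and calls describe these arrays and are no support for a rise. Averaged over both doses miR-6366 was 1.80 higher on the glog2 scale (SE 0.46, 95% confidence interval 0.84 to 2.75, limma adjusted p = 0.00251, higher in 3 of 3 mice), but this direction turned to -0.80 under quantile normalization and to -0.79 with normexp and quantile normalization. Without normalization the signal was 4.67-fold higher. By this test 44.7% of the miRNAs tested were called higher, so the rise of 1 of the 2 members is near the background, and 224 of the 631 miRNAs rose more. The median change of the tested miRNAs was 0.69. While its signal rose, the share of miR-6366 in the detected signal was lower, at 0.723% ± 0.236 (SD, n = 3) with 0.026 U and 0.668% ± 0.139 (SD, n = 3) with 0.67 U, against 1.35% ± 0.175 (SD, n = 3) at 0 U.

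For single doses miR-6366 was called higher at 0.026 U, with 1.56 on the glog2 scale (limma adjusted p = 0.0241), where 36.6% of all tested miRNAs were called higher, and at 0.67 U, with 2.04 (limma adjusted p = 0.00294), where 44.8% were. Both values became negative under quantile normalization, at -0.84 and -0.76. The call at 0.026 U was also lost without mouse 9, at 0.77 (limma adjusted p = 0.46), and without mouse 7, at 1.84 (limma adjusted p = 0.11). It was lost with the 75th percentile at 0.36 (limma adjusted p = 0.508), with vsn on the tested miRNAs at 0.80 (limma adjusted p = 0.113) and with probe A_54_P00006058 alone at 1.06 (limma adjusted p = 0.0702). With the value unchanged at 1.56, it was lost without the filter on detection (limma adjusted p = 0.179) and in a fit of the compared groups alone (limma adjusted p = 0.192). At 0.67 U the call was lost without mouse 7, at 2.02 (limma adjusted p = 0.0654), and with the 75th percentile, at 0.58 (limma adjusted p = 0.221). The doses themselves differed by 0.48 (limma adjusted p = 0.936). With the doses of mouse 9 taken from the titles that difference was 1.47 (limma adjusted p = 0.046), and without mouse 9 it was 1.46 (limma adjusted p = 0.113).

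MiR-5100 stayed near background. At 0.026 U it was at 8.10, 4.71 and 5.58 units in mice 7, 10 and 9, and at 0.67 U at 7.33, 7.65 and 4.29 units, which overlaps the 3.57 to 7.32 units at 0 U. The change over both doses was -0.20 on the glog2 scale (95% confidence interval -1.03 to 0.63, limma adjusted p = 0.78), with scalings that gave both signs. It was called lower, at -1.52, -1.61 and -1.18, when arrays were scaled to the 75th percentile, by quantiles or by vsn on the tested miRNAs. On these arrays only 1 of its 2 probes was above background, so signal over background limits this comparison.

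Within an array the ratio of the 2 members needs no scaling. MiR-6366 over miR-5100 was 14.8, 25.2 and 28.6 at 0 U in mice 7, 10 and 9, then 26.3, 46.9 and 317 at 0.026 U, and 71.1, 181 and 91.3 at 0.67 U. Both RNase arrays of each mouse were above that mouse's 0 U array, although across mice the groups overlapped. The mean log2 ratio was 2.0 higher with RNase, at 6.46 ± 1.30 (SD, n = 6) against 4.46 ± 0.50 (SD, n = 3), with p = 0.0741 in a two-sided exact permutation test within mice over 27 relabellings. Exchanging arrays over all mice gave p = 0.0476 in the exact permutation test over 84 relabellings. That form ignores the pairing by mouse and counts the 2 RNase arrays of a mouse as independent. The test within mice keeps the pairing, and by it an unequal response of the 2 members was not shown. With 27 relabellings this exact permutation test cannot give a p below 0.037, so an equal response was not shown either. MiR-5100, the divisor, was near background on these arrays, which limits the ratio.

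**Figure D3:**
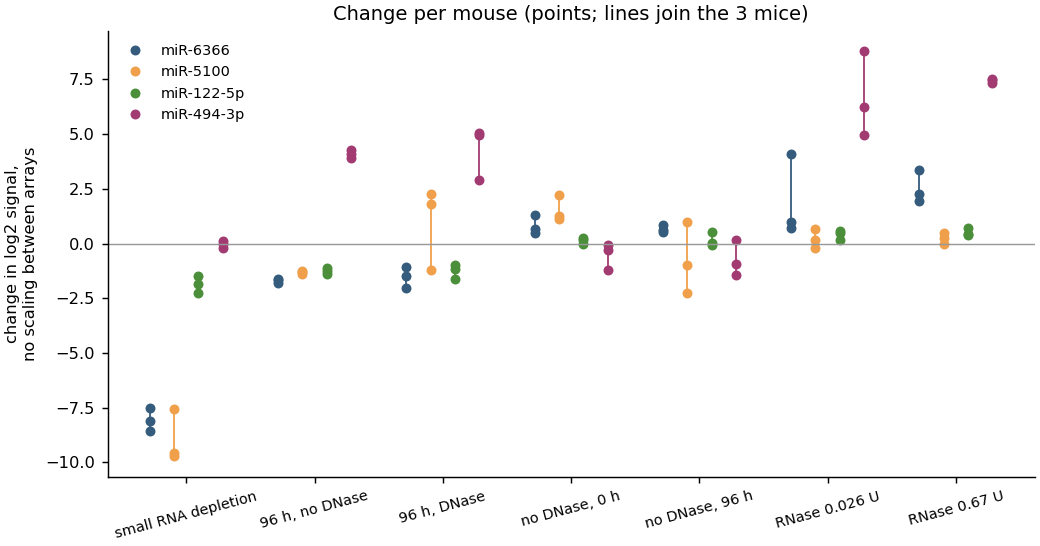
Change in log2 signal of the members and of the comparators miR-122-5p and miR-494-3p, without scaling between arrays, for 7 comparisons, with 1 point per mouse and a line from the lowest to the highest. The members lie lowest under depletion, miR-494-3p lies highest under both RNase doses, and miR-5100 spreads widest after storage with DNase.

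In RNA isolated without DNase, both members were lower after storage of the liver for 96 h. Brightness in fresh RNA was among the values that chose them, so this comparison too is described without a test. MiR-6366 fell from 57325.5, 64621 and 53289 units to 16586, 20931 and 16555.5 units in mice 7, 10 and 9. The groups did not overlap, and between 28.9% and 32.4% of the signal was left. MiR-5100 fell from 6957, 9290 and 7297 units to 2632, 3721 and 3070 units, again without overlap, leaving 37.8% to 42.1%. On the glog2 scale miR-6366 fell by 3.38 (SE 0.53) and miR-5100 fell by 3.00 (SE 0.46), each lower in 3 of 3 mice. By limma 23% of all tested miRNAs were called lower, from which nothing is read for the members. The median of the tested miRNAs was higher by 2.16, and the normalized fall is larger than the 3.25-fold and 2.50-fold falls of the raw signals. MiR-122-5p fell by 2.93 (limma adjusted p = 1.37e-05). Of the 326 tested miRNAs numbered 3000 and above, 245 (75.2%) were called higher with storage and 11 (3.37%) lower. Over all tested miRNAs, which include these 326, 23% were called lower. Without DNase the stored arrays detected 599 to 651 miRNAs and the fresh arrays 273 to 342. A miRNA that passed the filter only through stored or RNase arrays could hardly be called lower, so the shares are not compared. The 11 include the members, but brightness in fresh RNA helped to choose these, so nothing is read from their place there.

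The share of miR-6366 in the detected signal was 8.45% ± 0.40 (SD, n = 3) after storage without DNase against 41.1% before. On the log2 scale this share fell by 2.28. The share of miR-5100 was 1.47% ± 0.152 (SD, n = 3) against 5.49%, and fell by 1.91. The log2 ratio of miR-6366 to miR-5100 was lower in 3 of 3 mice and did not overlap, with a mean of 2.53 ± 0.12 (SD, n = 3) after storage and 2.90 ± 0.13 (SD, n = 3) before.

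After storage with DNase the raw signals of the members moved in opposite directions in mice 7 and 9, while both fell in mouse 10. Fresh DNase-treated RNA chose them, so this comparison is described only. MiR-6366 was at 10939, 14538 and 9274 units in mice 7, 10 and 9, which is 24.7% to 47.2% of the fresh signal. MiR-5100 was at 5172, 1855 and 14678 units, higher than in fresh DNase-treated RNA in mice 7 and 9 (3.48-fold and 4.76-fold) and lower in mouse 10 (0.435-fold). In mouse 9 miR-5100 was brighter than miR-6366, with a ratio of 0.632, which occurred on no other array. On the glog2 scale miR-6366 fell by 3.36 and miR-5100 changed by -0.87 ± 1.46 (SD of 3 mice), and the latter was 0.95 without normalization. The median of the tested miRNAs was higher by 2.47. Relative to that median the changes were -5.83 for miR-6366 and -3.35 for miR-5100.

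The effect of leaving out DNase was tested at 96 h. MiR-6366 was brighter without DNase in each mouse, by 1.52-fold, 1.44-fold and 1.79-fold in mice 7, 10 and 9, and the arrays did not overlap. On the glog2 scale the difference was 0.78 (SE 0.53, limma adjusted p = 0.397), which did not pass the test. For miR-5100 the arrays overlapped, and the difference was -0.61 (SE 0.46, 95% confidence interval -1.57 to 0.34, limma adjusted p = 0.45), with mouse 10 higher and mice 7 and 9 lower. In this comparison 10.8% of all tested miRNAs were called in either direction. At 0 h, described without a test, undigested RNA gave 1.42-fold to 2.47-fold more miR-6366 signal and 2.18-fold to 4.68-fold more miR-5100 signal, in 3 of 3 mice each.

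Each member is read by a pair of probes with 15 spots each, and for miR-6366 their balance changed with RNase. Probe A_54_P00006058 was 2.47, 2.38 and 2.32 times as bright as probe A_54_P00006059 in fresh DNase-treated RNA of mice 7, 10 and 9. The ratio was 1.85, 1.85 and 2.0 in depleted RNA and 1.87, 1.67 and 2.02 at 0 U. At 0.026 U it was 1.12, 1.02 and 0.564, and at 0.67 U 0.683, 0.60 and 0.755. The order of the probes was thus reversed on all 3 arrays at 0.67 U and on 1 at 0.026 U, the array of mouse 9 whose title names the higher dose. RNase raised the first probe 3.09-fold and the second 7.48-fold. On the glog2 scale both probes were called higher on their own, at 1.2 (limma adjusted p = 0.0134) and 2.46 (limma adjusted p = 3.15e-04). Both calls are against 0 U and so are not independent of the choice of the members. The change in the balance of the probes was noticed after the values were seen and was given no test of its own. The log2 ratio moved by -1.27 between 0 U and RNase, while the median size of this shift was 0.0322 over the 44 miRNAs with 2 probes that both gave at least 5 units on these arrays, and no other of the 44 moved as far.

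After storage without DNase the ratio of the miR-6366 probes was 1.58, 1.40 and 1.46, below the 2.12, 2.02 and 2.18 of fresh undigested RNA in mice 7, 10 and 9. The shift was -0.51, reached or passed in size by 6 of 70 miRNAs including miR-6366. For miR-5100, probe A_54_P00005600 was 7.23 to 8.88 times as bright as A_54_P00005599 on the 12 arrays with small RNAs, and storage without DNase moved the log2 ratio by 0.14. On the 12 arrays of depleted RNA 0 of the 15 spots of A_54_P00005599 were well above background, so its ratio there has no meaning. The sequences of the probes were not used here.

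**Figure D4:**
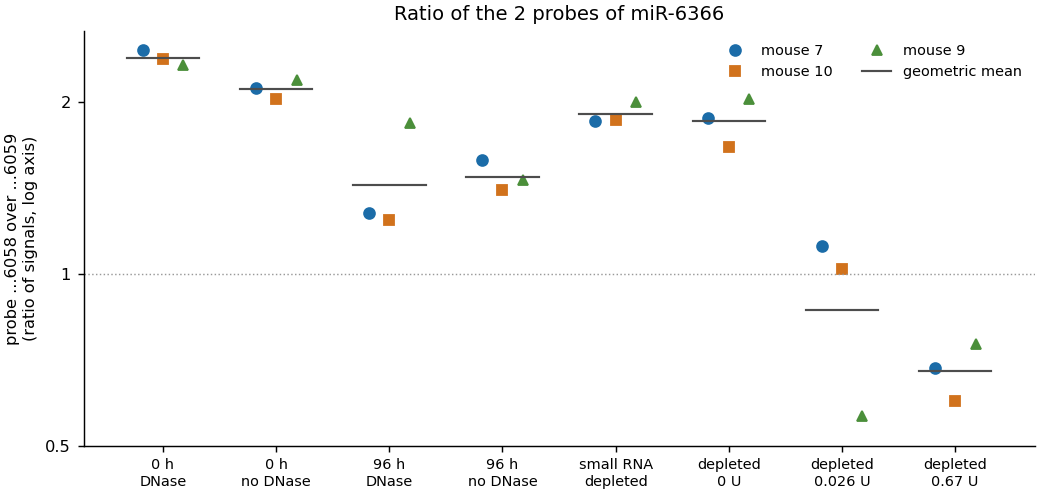
Signal of probe A_54_P00006058 over that of A_54_P00006059, the probes of miR-6366, on each array on a log axis, with 1 point per mouse and the geometric mean as a line; the dotted line marks equal signals. The ratio is above 1 on all arrays without RNase and between 0.564 and 1.12 on the 6 with RNase.

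By Pearson correlation of glog2 values over the 24 arrays, the miRNAs most like miR-6366 were miR-21a-5p (r = 0.964), the liver-abundant miR-148a-3p (r = 0.961) and the erythroid miR-451a (r = 0.960), and miR-5100 came at position 18 (r = 0.919). Those most like miR-5100 were miR-212-3p (r = 0.985), miR-101c (r = 0.964) and again miR-21a-5p (r = 0.962). The 24 arrays fall into groups with and without small RNAs, which all these correlations share, so they are descriptions. MiR-212-3p also had the wide spread of miR-5100 after storage with DNase, at 215, 45.0 and 295 units in mice 7, 10 and 9 against 56.5, 52.3 and 89.6 units without DNase, with mouse 10 the lowest of the first 3. MiR-21a-5p had no such spread, at 876, 1673 and 898 units with DNase.

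**Figure D5:**
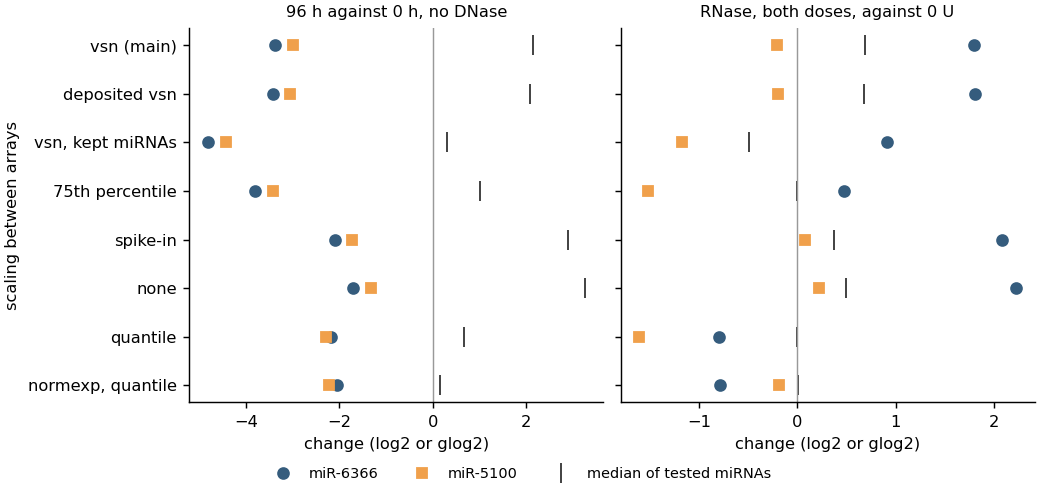
Change of miR-6366 (circles), miR-5100 (squares) and the median of the 631 tested miRNAs (bars) under 8 scalings between arrays, on the log2 or glog2 scale, for storage without DNase (left) and RNase (right). With storage both members lie below 0 under all 8, while with RNase miR-6366 runs from -0.80 to 2.22.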

How the data were processed

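Fluorescence intensity was deposited per spot and per miRNA in scanner files that the authors made with Agilent Feature Extraction 10.10.1.1, background subtracted and not normalized between arrays. A deposited table holds log2-scale values to which the authors had applied variance stabilizing normalization (vsn). For a detected miRNA the total gene signal was used, and for one not detected the summed total signals of its probes. vsn was rewritten in Python 3.11.15, and its values (glog2) differed from the deposited ones by 0.0956 (SD). MiRNAs detected on at least 5 of 24 arrays were kept (631), and 1002 were detected on no array. Limma 3.58.1 in R 4.3.3 fitted the 8 group means with a trend in the variance. Calls needed a Benjamini-Hochberg adjusted p under 0.05, two-sided over the 631, and a 2-fold change (1 on the glog2 scale). The fit was tested on simulated data.

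The groups came from the labels. Same-numbered arrays are parts of 1 animal's liver and so are paired, although deviations from the group means correlated on average by 0.0914 within a mouse and -0.0987 between mice. Each mouse had its 8 arrays on 1 slide, scanned together, and its effect cannot be told apart from that of the slide or scan. No arrays of a group were identical, with a highest correlation of 0.983. The members and lists were chosen with earlier results of these data known. Named besides the members were the 3 tested miRNAs most correlated with each, the 5 brightest in fresh RNA, the 3 next largest falls on depletion, and miR-122-5p and miR-494-3p as comparators. Markers fixed for other cell types were also read. Of the erythroid list 2 of 2, of the leukocyte list 2 of 3 and of the endothelial list 1 of 1 were detected on all 6 fresh arrays, of the neuron list 0 of 2 and of the muscle list 0 of 3. ViennaRNA 2.7.2 folded the hairpins. The number of arrays limits the precision of all values.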

Additional observations from a re-analysis of the deposited data

How the results depend on the processing

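The change with storage without DNase, given without a test, was negative for both members under all alternatives run. The rank test named in the methods used the same values, -3.38 and -3.00. The change ranged from -4.82 to -1.70 for miR-6366 and from -4.44 to -1.32 for miR-5100. With the mouse as a replicate block for the paired arrays, the storage changes were again -3.38 and -3.00, the RNase change of miR-6366 was 1.80 (limma adjusted p = 0.0026), and the block changed no other call. The RNase rise of miR-6366 over both doses depended on the scaling. It was 0.47 when arrays were scaled to the 75th percentile, 0.91 with vsn on the tested miRNAs, -0.80 by quantiles and -0.79 with normexp and quantiles, and 1.80 with an adjusted p of 0.0573 by the rank test. Quantiles and normexp with quantiles also turned its values at 0.026 U (-0.84 and -0.85) and at 0.67 U (-0.76 and -0.72). MiR-5100 with RNase was called lower at -1.52, -1.61 and -1.18 under the 75th percentile, quantiles and vsn on the tested miRNAs. For DNase omission at 96 h, miR-6366 was called higher at 1.29 by quantiles and at 1.24 with normexp and quantiles. The log2 ratio of the members was 2.0 higher with RNase, with p = 0.0741 within mice in the exact permutation test. Over all relabellings, which ignore the pairing by mouse, the exact permutation test gave p = 0.0476. Without 1 mouse each, the changes over both doses ran from 1.5 to 1.97 for miR-6366. The cause of these differences was not tested. Signal over background limits miR-5100 in depleted RNA, where it stayed below 10 units.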
